A study of Spinacia oleracea with 12 samples.

Results

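A set of 76 spinach genes was chosen from the 25495 genes of the table because they were transcribed in root, nearly silent in leaf, and lower in root under high N than under low N. A gene was called root-restricted when its FPKM (fragments per kilobase of gene, scaled to the depth of the library) was below 1 in all 6 leaf libraries and averaged at least 1 over the 6 root libraries, which held for 1824 genes. Of these, 218 had every high N root library below every low N root library. They were ranked by the difference between the treatments in mean log2(FPKM + 1), the top 80 were taken, and 4 of those were left out by name: a pair of high-affinity nitrate transporters of the NRT2 family, an ammonium transporter and a gibberellin 2-beta-dioxygenase. The same root values therefore chose the members and are given here as a description, with no test.

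The plants were spinach of the variety 'Banjo', 6 weeks old, grown in a clay-based medium in a growth chamber. High N root and high N leaf came from plants kept at 200 ppm N, and low N root and low N leaf from plants kept at 50 ppm N, with 3 biological replicates in each of the 4 groups and 3 independent plants per treatment. N was given as calcium nitrate in an otherwise N-free nutrient solution with phosphate, potassium, iron and other micronutrients at the same level in both treatments. Calcium was kept equal with calcium chloride, so a smaller nitrate supply came with a larger chloride supply and the effects of these anions cannot be told apart. Whole roots are a mixture of cell types, in which fewer cells of a type and less RNA per cell cannot be told apart.

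Roots take up mineral ions through plasma membrane transporters in the epidermis and cortex and load them into the xylem, from which the shoot is supplied. Nitrate is both a nutrient and a signal in roots, and plants short of N commonly change root growth, ion uptake and the building of cell walls. Root hairs, the endodermis and the xylem have walls of particular composition, made by enzymes that cut, join, esterify and cross-link polysaccharides. Grouped by keyword, the cell wall list and the ion and nutrient transport list held the most named genes among the 76. These counts depend on how the lists were drawn.

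The 12 libraries held 15627994 to 18608172 fragments on genes, and 3 fragments on a gene of 1 kb corresponded to 0.161 to 0.192 FPKM, a limit that covers counting error only. The tissue in the library names was checked with 8 genes of photosynthesis, whose summed level was 35.2 to 83.0 FPKM in roots given high N and 14.8 to 28.0 FPKM in roots given low N, against 15410 to 22610 FPKM in leaf. The chlorophyll a-b binding protein gene Spo03025 was at or near 0 in root, with 0 to 0.239 FPKM, and most of the sum in root came from Spo22082 (OHP1) and Spo19511 (protochlorophyllide reductase). Median-of-ratios scaling shifted the median root difference of all genes by less than 0.1 on the log2 scale, to -0.0048 from -0.048.

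Root differences below are high N minus low N in mean log2(FPKM + 1), so a negative value is lower under high N. They ran over the 76 members between -2.84 and -0.96 with a median of -1.24, against a median of -0.048 over 17881 genes with a mean root FPKM of at least 1 and -0.15 over the root-restricted genes. As a ratio of mean FPKM, low N root was 1.99 to 27.0 times high N root, with a median of 3.19. Mean root levels were 1.06 to 85.3 FPKM with a median of 8.18 FPKM. The rule required groups that do not overlap, a pattern in this direction that 9.50% of the 17881 genes and 12.0% of the 1824 root-restricted genes showed. The opposite pattern, with every high N library above every low N library, was shown by 6.14% and 8.72%.

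**Figure D1:**
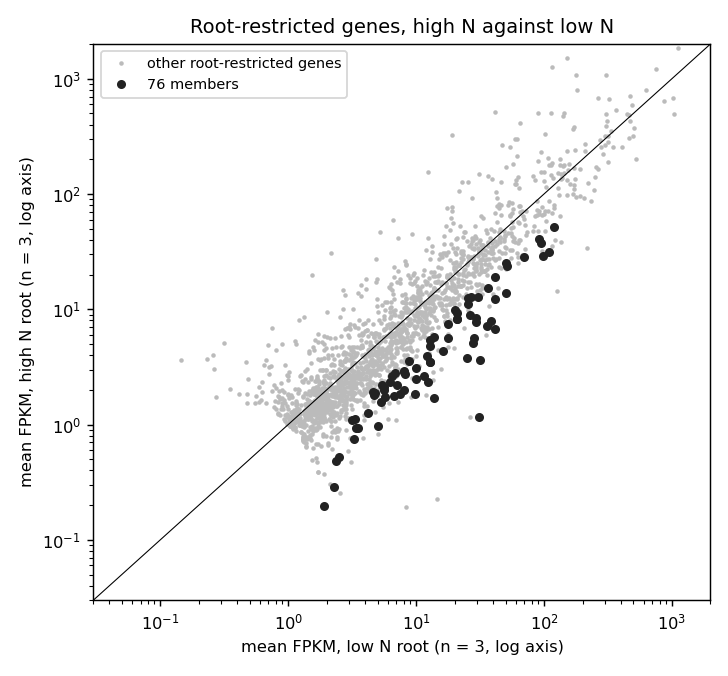
Mean FPKM in high N root (vertical, log axis) against low N root (horizontal, log axis), n = 3 libraries each, for the 76 members (black) and the other root-restricted genes (grey), with the line of equality. The members lie below the line by the choice made, over mean root levels of 1.06 to 85.3 FPKM.

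Of the 76 members, 44 carried a protein name in the tables of the study, 11 were listed there without a similar protein, and 21 were not listed. The names are those of the most similar described protein, mostly of Arabidopsis or rice, and functions given below are known from those species unless another is named. Grouped by keyword, 11 members belonged to the cell wall list, 9 to ion and nutrient transport, 5 to specialised metabolism, 4 to transcription factors, 3 to peroxidases, 2 to hormone metabolism and response, 1 to lipid and suberin and 1 to receptors and kinases. A further 8 named members fell in no list. In the order given, the lists held 90, 51, 87, 70, 27, 24, 7 and 149 named genes with a mean root FPKM of at least 1. Their keywords were chosen with earlier results known.

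The largest difference among named members was in Spo11782 (probable cation transporter HKT6), a member of the HKT family, which moves sodium and in some members potassium across membranes. Spo11782 had 5.12, 1.40 and 4.42 FPKM in the 3 high N root libraries and 31.6, 16.9 and 45.6 FPKM in the 3 low N root libraries. Its lowest low N library was 3.31 times its highest high N library, the widest gap of all 76 members, and its root difference was -2.81.

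A pair of genes with consecutive identifiers belonged to the same family. Spo08425 (HKT7) had 6.54, 2.98 and 1.81 FPKM in high N root and 25.4, 16.4 and 33.2 FPKM in low N root, a difference of -2.51. Spo08426 (HKT1), named after the Arabidopsis transporter that withdraws sodium from the xylem sap of the root, had 10.8, 4.25 and 5.38 FPKM in high N root, against 45.1, 23.5 and 54.9 FPKM in low N root. Its difference was -2.44. In all 3 HKT genes low N replicate 3 was the highest library and low N replicate 2 the lowest of low N, while the high N libraries stayed at or below 10.8 FPKM. The level of Spo08425 was 0.336 to 0.701 times that of Spo08426 over the 6 root libraries, and how far their reads can be separated from each other is uncertain. Gene lengths worked back from FPKM were 354 bases for Spo08425, 963 for Spo08426 and 666 for Spo11782. Whether the neighbours are separate genes or parts of a single gene was not tested.

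Nitrate and phosphate transport were represented by a single gene each after the nitrate and ammonium transporters named above had been left out of the set. Spo16897, similar to NPF6.2 of the NRT1/PTR family, a nitrate transporter of Arabidopsis petioles, had 0.568, 0.325 and 2.01 FPKM in high N root, against 4.85, 4.63 and 5.59 FPKM in low N root. The 3 low N libraries lay close together and all at least 2.30 times the highest high N library, and the difference was -1.71. Genes of the NRT1/PTR family that were higher under high N could not enter the set, so Spo16897 does not stand for the family or for every gene similar to NPF6.2. Spo19049 (PHT1-1, a transporter for uptake of inorganic phosphate) had 2.29, 2.25 and 3.72 FPKM in high N root, against 6.61, 8.23 and 9.57 FPKM in low N root. Its difference was -1.29, and its narrowest gap between the groups was 1.77 times.

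The remaining 4 transport members are known for metals, and they include the most strongly transcribed of all members. Spo17462, similar to Nramp5, which takes up manganese in rice roots, had 27.5, 44.5 and 82.3 FPKM in high N root, against 87.4, 94.4 and 175.7 FPKM in low N root. Its mean of 85.3 FPKM was the highest of the 76, with a difference of -1.26, but its highest high N library and its lowest low N library were only 1.06 times apart. Spo24116, also similar to Nramp5, had 23.6, 41.1 and 57.8 FPKM in high N root and 61.7, 76.1 and 134.2 FPKM in low N root. The level of Spo17462 was 1.08 to 1.42 times that of Spo24116 in every root library, and reads of these similar genes may be divided between them. Their lengths worked back from FPKM were 1675 and 474 bases, and whether the shorter is a complete, separate gene was not tested.

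Spo20373 (DETOXIFICATION 43, which exports citrate into the xylem for iron transport) had 10.6, 17.1 and 29.3 FPKM in high N root, against 33.7, 47.9 and 42.0 FPKM in low N root, a difference of -1.17. Spo21957 (zinc transporter 7) had 16.2, 30.2 and 25.4 FPKM in high N root, against 40.2, 44.3 and 70.7 FPKM in low N root, a difference of -1.08. In these metal transport genes high N replicate 1 was the lowest of all 6 root libraries, unlike in most members. Low N replicate 3 was the highest low N library in 8 of the 9 transport members, against 32.5% of all 17881 genes. The exception was Spo20373.

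The 11 cell wall members included 3 genes for xyloglucan endotransglucosylase/hydrolases (XTH), which cut and rejoin the xyloglucan chains that tether cellulose. Spo23061 (XTH16) had 1.10, 0.354 and 3.59 FPKM in high N root, against 5.74, 23.5 and 11.8 FPKM in low N root, a difference of -2.44. Spo23062, with the next identifier and the same name, had 8.60, 3.02 and 9.99 FPKM in high N root, against 13.9, 55.0 and 39.1 FPKM in low N root, a difference of -2.10. Both were lowest in high N replicate 2 and highest in low N replicate 2. The level of Spo23061 was 0.117 to 0.427 times that of Spo23062, so the pair did not keep a fixed ratio, and the split of reads between them is uncertain. Spo24498 (XTH8) had 13.8, 8.60 and 19.3 FPKM in high N root, against 23.8, 80.7 and 47.7 FPKM in low N root, in the same order of libraries, with a difference of -1.70.

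A further 5 members belonged to the trichome birefringence family, whose proteins attach acetyl groups to wall polysaccharides such as xylan or are needed for normal pectin and cellulose. Spo01477 (TBL38) had 7.99, 1.39 and 7.37 FPKM in high N root, against 22.2, 37.1 and 26.3 FPKM in low N root. Its difference was -2.36, and its lowest low N library was 2.78 times its highest high N library. Its neighbour by identifier, Spo01476 (also TBL38), had 2.57, 0.872 and 3.21 FPKM in high N root, against 5.16, 11.3 and 4.94 FPKM in low N root. The level of Spo01476 was 0.187 to 0.628 times that of Spo01477, and their reads may be divided between them. Their lengths worked back from FPKM were 498 and 625 bases, and whether they are parts of a single gene was not tested. Spo18088 (trichome birefringence), Spo24055 (TBL19) and Spo18124 (TBL6) had differences of -1.18, -1.04 and -0.96.

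The other 3 wall members were a cell surface glycoprotein gene and a pair of genes for pectin enzymes. Spo04884 (fasciclin-like arabinogalactan protein 9) had 31.8, 17.8 and 36.9 FPKM in high N root, against 58.2, 150.5 and 88.2 FPKM in low N root, a difference of -1.70. Spo16931 (pectinesterase/pectinesterase inhibitor 6), of a family that removes methyl groups from pectin, differed by -1.32, and its groups were 1.05 times apart at the nearest libraries. Spo22193 (polygalacturonase, named after a peach enzyme that cuts pectin) was weakly transcribed, with 0.822, 0.419 and 1.57 FPKM in high N root, against 1.74, 5.76 and 3.01 FPKM in low N root.

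Peroxidases of the secreted plant class, which cross-link wall polymers and produce or consume hydrogen peroxide, made up 3 members. Spo12327 (peroxidase 57) had 2.56, 0.783 and 2.15 FPKM in high N root, against 8.23, 14.0 and 7.18 FPKM in low N root. Its difference of -1.94 was the largest of the 3, with the groups 2.80 times apart at the nearest libraries. Spo03234 (peroxidase 2) had 2.47, 0.614 and 2.85 FPKM in high N root and 3.43, 6.96 and 6.50 FPKM in low N root, a difference of -1.21. Spo26341 (peroxidase 60) had 5.85, 3.62 and 7.71 FPKM in high N root and 13.7, 18.0 and 9.37 FPKM in low N root, a difference of -1.13. All 3 were lowest in high N replicate 2 and highest in low N replicate 2.

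**Figure D2:**
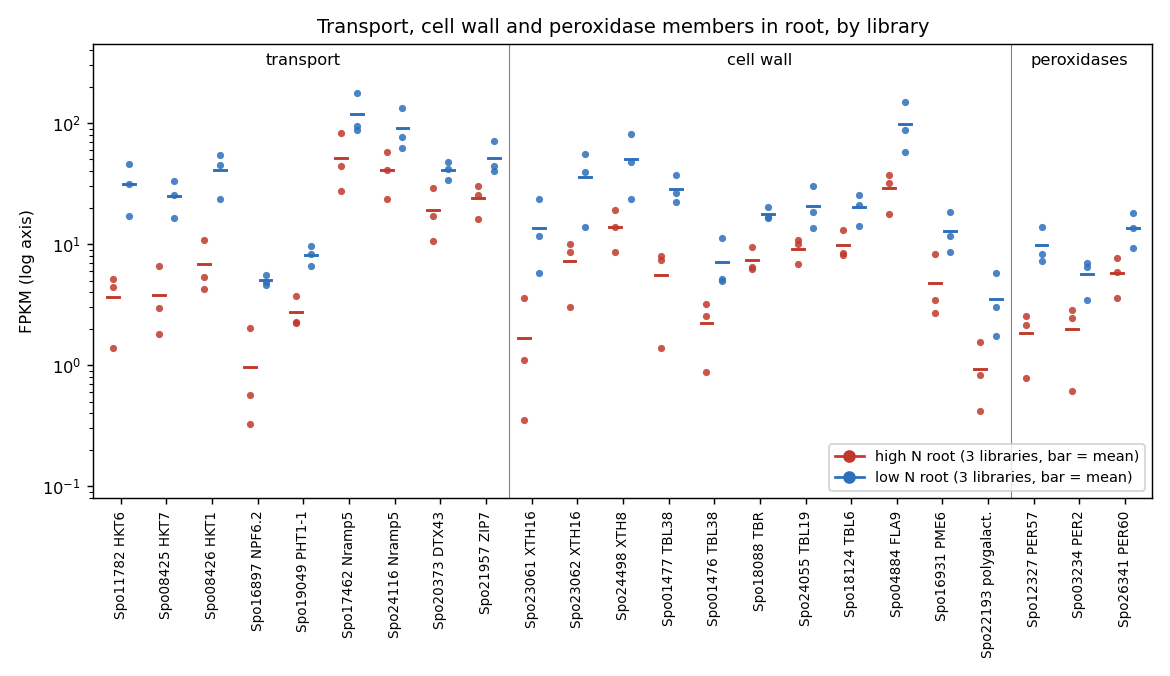
FPKM (log axis) of the 9 transport, 11 cell wall and 3 peroxidase members in each root library, high N left and low N right of each gene; points are the 3 libraries and bars their means. The groups do not overlap in any gene, as the choice of members required, and the nearest high N and low N libraries are 1.05 times apart for Spo16931 (PME6) and 3.31 times apart for Spo11782 (HKT6).

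Of the 4 transcription factor members, Spo19675 (bHLH25) had the largest difference, with 2.93, 6.51 and 13.6 FPKM in high N root, against 50.2, 23.3 and 14.0 FPKM in low N root. Its difference was -1.81, but high N replicate 3 and low N replicate 3 were nearly equal, 1.02 times apart. Spo30029, similar to ORG2, a bHLH factor of the Arabidopsis iron deficiency response, had 2.38, 1.0 and 5.35 FPKM in high N root, against 5.88, 7.54 and 10.7 FPKM in low N root. Spo00928, similar to the rice YABBY factor DROOPING LEAF, which acts in carpel and leaf midrib development, had 0.104, 0.316 and 0.435 FPKM in high N root, against 3.80, 1.01 and 2.09 FPKM in low N root. As a ratio of means low N root was 8.06 times high N root, while at these low levels the added 1 FPKM held the log2 difference at -1.28. Spo23763 (bHLH96) differed by -0.97.

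The hormone list held 2 weakly transcribed members. Spo09121, similar to YUCCA8, a flavin monooxygenase of the last step of auxin synthesis, had 0.625, 0.50 and 0.328 FPKM in high N root and 1.02, 4.29 and 1.76 FPKM in low N root. Its difference was -1.06, and -0.68 without low N replicate 2. Spo01440, similar to the bean zeatin O-glucosyltransferase that stores cytokinin as a glucoside, had 1.59, 1.39 and 2.60 FPKM in high N root and 3.56, 5.65 and 4.99 FPKM in low N root.

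Specialised metabolism was represented by 5 members with mean root levels of 3.24 to 5.03 FPKM and differences of -1.64 to -1.02. Spo03090 (MLP-like protein 43), of a family of small proteins that bind hydrophobic ligands, had low N libraries closest together, with 2.05, 1.05 and 2.93 FPKM in high N root, against 8.62, 7.51 and 7.99 FPKM in low N root. Spo12076 (cytochrome P450 71A6), Spo02759 (UDP-glycosyltransferase 73C3), Spo01079 (a dioxygenase) and Spo00740 (cytochrome P450 87A3) differed by -1.27, -1.09, -1.03 and -1.02. High N replicate 3 was the highest high N library in all 5.

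Single members stood in the last lists. Spo11406 (lipid transfer-like protein VAS) had 4.59, 3.32 and 8.38 FPKM in high N root, against 13.9, 14.3 and 10.6 FPKM in low N root. Spo28390 (cysteine-rich receptor-like protein kinase 25) had 30.2, 17.9 and 27.5 FPKM in high N root, against 47.8, 65.0 and 37.6 FPKM in low N root. The smallest ratio of means among the 76, 1.99, was that of Spo28390.

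Named members outside every list were led by Spo04492 (BDA1, an ankyrin repeat membrane protein of Arabidopsis immunity). It had 0.933, 0.905 and 5.13 FPKM in high N root, against 11.0, 12.2 and 13.6 FPKM in low N root, a difference of -2.23. The low N libraries were within a narrow range and high N replicate 3 stood above the other high N libraries. The other 7 differed by -1.62 to -1.0. Among them, Spo08287 (MIZU-KUSSEI 1), which Arabidopsis roots need to bend towards water, had 5.46, 6.66 and 4.77 FPKM in high N root and 10.9, 23.3 and 19.3 FPKM in low N root. Spo16444 (non-specific phospholipase C4, an enzyme of membrane lipid turnover) had 11.5, 9.26 and 12.8 FPKM in high N root, against 27.1, 26.2 and 23.3 FPKM in low N root. Both had groups that were at least 1.63 times apart at the nearest libraries.

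The largest difference among the 76 members belonged to a gene with no name, Spo09198, ranked 2 before the nitrate transporter ranked 1 was left out, and rested on 1 library. It had 1.92, 0.435 and 1.12 FPKM in high N root, against 4.71, 83.3 and 5.82 FPKM in low N root. Its difference of -2.84 was -1.59 without low N replicate 2. Spo25944, unnamed, had 6.03, 3.21 and 6.11 FPKM in high N root and 9.72, 53.7 and 19.6 FPKM in low N root, again with the highest value in low N replicate 2. Spo20191, unnamed and among the 3 members with the highest mean root FPKM, had 27.7, 20.4 and 46.5 FPKM in high N root and 46.7, 199.0 and 82.1 FPKM in low N root, so that its nearest libraries were almost equal. Its difference of -1.59 was -1.03 without low N replicate 2. Spo03959, unnamed and next below at a mean of 66.7 FPKM, had 54.6, 29.2 and 29.9 FPKM in high N root and 59.3, 154.5 and 72.8 FPKM in low N root. The 32 members without a name had differences of -2.84 to -0.96 with a median of -1.20.

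At the limit of the choice, the last 2 members by rank were Spo28390 at -0.964 and Spo05982 at -0.963, and the next 2 genes were Spo09101 at -0.962 and Spo22191 at -0.955. The difference of Spo05982 was -0.59 without low N replicate 3. The highest leaf values among members were 0.992 FPKM for Spo24498 in high N leaf replicate 1 and 0.978 FPKM for Spo05982 in low N leaf replicate 1. Spo17050, with a root difference of -1.43, was outside at a highest leaf value of 1.03 FPKM. In 19 members the lowest low N library was less than 1.1 times the highest high N library, and in 11 it was at least 2 times that library.

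The members varied more among replicates than most genes did. Their median coefficient of variation was 42.7% in the roots given high N and 43.3% in those given low N, against 14.5% and 19.1% over all genes with a mean root FPKM of at least 1 and 28.5% and 35.3% over the root-restricted genes. The variation was shared by library. High N replicate 2 was the lowest high N library in 50 of 76 members, against 32.8% of all 17881 genes and 41.4% of root-restricted genes. High N replicate 3 was the highest in 55 of 76, against 37.8% and 44.1%. Low N replicate 2 was the highest low N library in 52 of 76, against 34.7% and 40.6%, and low N replicate 1 was the lowest in 48 of 76, against 37.4% and 44.8%. In 38 of the 76 members the lowest high N library and the highest low N library were both replicate 2. These shares are not independent of the choice, which used the same 6 values.

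The kinds of member differed in which low N plant was highest. Low N replicate 2 was the highest low N library in 10 of 11 cell wall members, 3 of 3 peroxidases and 25 of 32 members without a name. It was the highest in 1 of 9 transport members. Replicate 3 was the highest in the other 8, against 32.5% of all 17881 genes and 26.9% of root-restricted genes. The 9 include an HKT pair and an Nramp5 pair whose reads may be shared and which were not shown to be separate genes. They are therefore not 9 separate observations. Each pattern rests on 1 low N library and on values that the choice used. The median deviation of the cell wall members from their low N mean was 0.68 in replicate 2 and -0.06 in replicate 3 on the log2 scale. For the transport members it was -0.18 in replicate 2 and 0.49 in replicate 3. Within high N root, the cell wall members had median deviations of -0.57 in replicate 2 and 0.47 in replicate 3, while those of the transport members were -0.14 and 0.35.

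**Figure D3:**
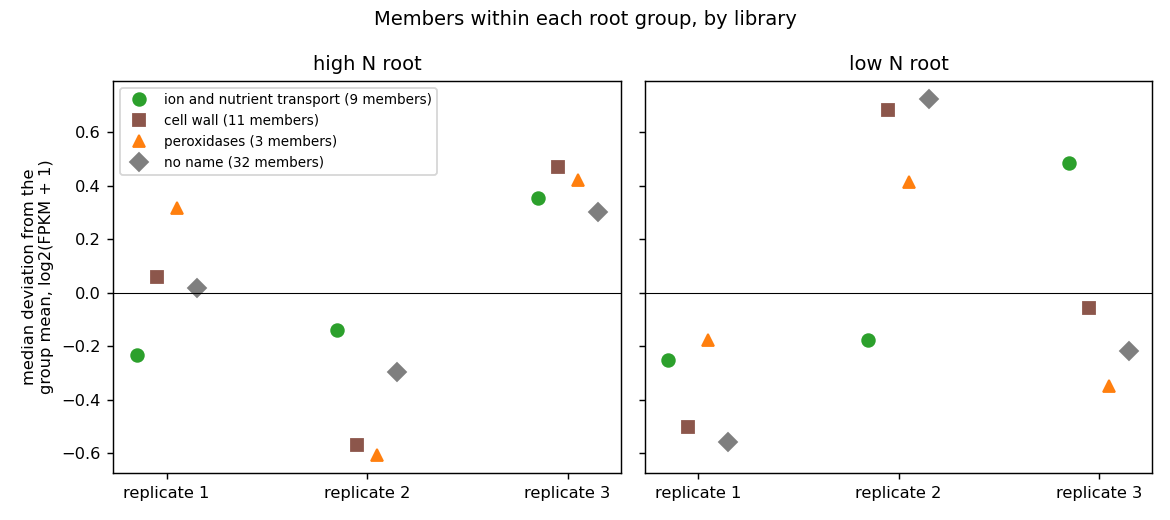
Median deviation from the group mean in log2(FPKM + 1), for 4 kinds of member, in the 3 libraries of high N root (left panel) and of low N root (right panel). In low N root the cell wall, peroxidase and unnamed members are above their mean in replicate 2 and the transport members in replicate 3.

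The summed level of the photosynthetic marker genes had the opposite order in the same libraries. The summed level of the 76 members was 569, 436 and 764 FPKM in high N root replicates 1, 2 and 3, and 1241, 2317 and 1677 FPKM in low N root replicates 1, 2 and 3. The summed level of the 8 photosynthetic markers was 57.6, 83.0 and 35.2 FPKM in high N root and 28.0, 14.8 and 23.7 FPKM in low N root. The order of the 6 libraries by the members' sum was therefore the exact reverse of their order by the markers' sum, within each treatment as well as across them. Across treatments the members' order was fixed by their choice. The markers came from genes named in the study's own lists, chosen on these libraries, so the mirrored order is not an independent observation. That order was carried by Spo22082 (OHP1), with 32.3, 49.4 and 12.9 FPKM in high N root and 12.4, 4.88 and 10.5 FPKM in low N root, and by Spo19511 (protochlorophyllide reductase). Single markers did not all share it: Spo03847 (photosystem I reaction center subunit V) had 0.604, 0 and 0.254 FPKM in high N root, against 0.887, 1.599 and 2.07 FPKM in low N root. Spo03025 (chlorophyll a-b binding protein) was at 0 in high N replicate 2, where the sum was highest. The part of the markers in the difference was not tested. Without replicate 2 of both groups the median difference of the members was -0.87, with a range of -2.76 to -0.38, and 45 of the 76 would still be chosen. Its sign was fixed by the choice of members, whose groups do not overlap.

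**Figure D4:**
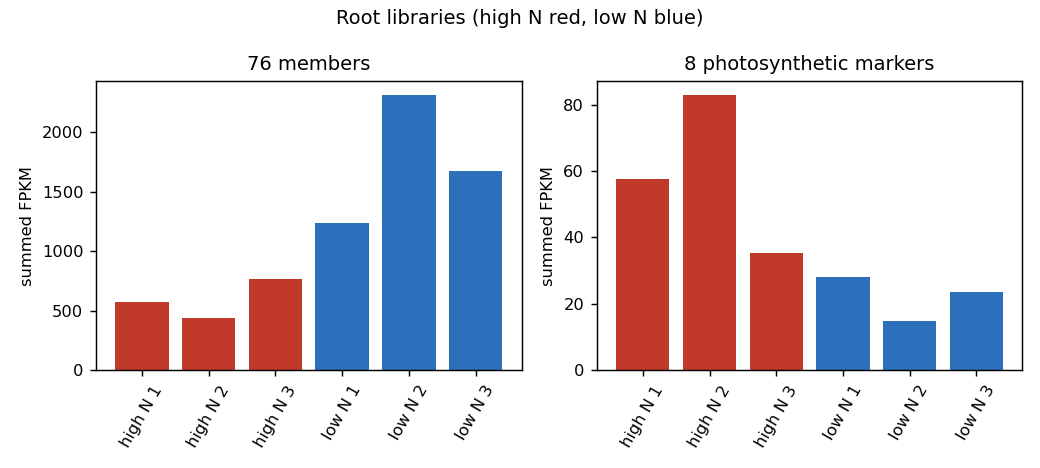
Summed FPKM of the 76 members (left panel) and of 8 photosynthetic marker genes (right panel) in each root library, high N in red and low N in blue. The members' sum is lowest in high N replicate 2 (436 FPKM) and highest in low N replicate 2 (2317 FPKM), and the markers' sum is highest and lowest in those same libraries (83.0 and 14.8 FPKM).

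Other genes of the same lists were counted to show what the members' pathways did beyond them. These genes come from the study's own lists of differentially expressed genes and transcription factors, chosen on these libraries, so their direction is not independent evidence. Over all 17881 genes in root, limma gave p below 0.05 for 6.52% lower and 4.63% higher under high N, and an adjusted p below 0.05 for 0.0280%, all of them higher. Of 79 other cell wall genes, 41 were lower and 11 higher at p below 0.05, with a median difference of -0.63. Of 24 other peroxidase genes, 12 were lower and 5 higher, with a median of -0.65. Of 42 other transport genes, 15 were lower and 9 higher, with a median of -0.30. The keywords for transport had no term for high-affinity nitrate or ammonium transporters, so such genes were not among the 42.

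Transcription factors counted 30 lower and 14 higher of 66 others, with a median of -0.42, and the hormone list 15 lower and 3 higher of 22, with a median of -0.86. The only genes of these lists with an adjusted p below 0.05 in limma were Spo07360 (similar to maize peroxidase 2) and Spo21018 (NAC transcription factor 29), both higher under high N, with differences of 2.78 and 1.82 and adjusted p = 0.0379 for each. No gene was called in root when high N replicate 1 or 2, or low N replicate 2 or 3, was left out. The lists of receptors and kinases and of specialised metabolism did not lean that way. Of 148 other receptor and kinase genes 38 were lower and 54 higher, with a median of 0.16. Of 82 other genes of specialised metabolism 28 were lower and 28 higher, with a median of -0.02. Of the 24 other root-restricted genes in the receptor and kinase list, 2 had a lower mean under high N, against 10 of 12 in the cell wall list. The share with a lower mean was 57.4% over all 17881 genes. That set is neither root-restricted nor taken from the study's lists, so it is not a like background.

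In leaf the choice of members fixed the level but not the direction between treatments. By holding leaf FPKM below 1 it also capped the size of any leaf difference in log2(FPKM + 1). All 6 leaf libraries held no fragment of 32 members, or 42.1% of the 76, against 22.9% of the 1824 root-restricted genes. These included Spo23061 and Spo23062 (XTH16), both TBL38 genes, both Nramp5 genes and Spo19049 (PHT1-1). Another 13 members had 1 to 3 fragments over all 6 leaf libraries and 31 had more, up to 139 in Spo17825. The 76 members together had 393 fragments in the 3 high N leaf libraries and 473 in the 3 low N leaf libraries.

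The 44 members with a leaf fragment were tested between high N leaf and low N leaf with limma on log2(FPKM + 1), together with all 21774 genes detected in leaf. None had an adjusted p below 0.05 (smallest 0.429), and neither did any other gene, 0% of the 21774, with a smallest adjusted p of 0.120 from limma. At an unadjusted p below 0.05 there was 1 member of 44, against 10.1% of all genes in either direction and 5.84% in the direction of this member, lower under high N. Another tool, voom, run on fragment numbers recovered from the FPKM, gave 0 and 1. The count at an unadjusted p below 0.05 was 0 with no variance trend, with all 4 groups in one fit, with a mean leaf FPKM of at least 0.1, and without high N leaf replicate 2 or low N leaf replicate 3, and 2 or 3 without replicate 1 of high N or of low N leaf. Differences ran between -0.32 and 0.22 with a median of -0.02, against -0.03 over all genes. Of the 44, 29 had the lower mean under high N, against 54.8% of all genes. The median depended on the scale. With 0.1 added instead of 1 it was -0.17, against -0.05 over all genes. In the voom fit it was -0.47, against -0.05, and with median-of-ratios scaling -0.02, against -0.01. A shift of the members as a set was not tested. For the members with 0 to 3 leaf fragments, a change of the size seen in root was not detectable at this depth. For all 44, leaf FPKM below 1 kept every value of log2(FPKM + 1) below 1. A difference as large as the root median of -1.24 was therefore not possible on this scale. The leaf result cannot decide whether a change of that size occurred.

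The member with p below 0.05 was Spo00740 (cytochrome P450 87A3), which had 0.146, 0 and 0.130 FPKM in high N leaf, against 0.241, 0.286 and 0.439 FPKM in low N leaf. This corresponded to 3, 0 and 3 fragments in high N leaf and 5, 6 and 10 fragments in low N leaf. The groups did not overlap, and the leaf difference was -0.28 (SE 0.097, adjusted p = 0.429 from limma). Its p was above 0.05 in each of the settings that gave a count of 0. A two-sided exact permutation test gave p = 0.10, the smallest that 3 libraries against 3 allow. In root the same gene had 1.97, 2.01 and 2.43 FPKM under high N and 3.00, 7.34 and 6.60 FPKM under low N. Leaf groups did not overlap in 2 of the 44 members, the other being the unnamed Spo09425, also lower under high N. It had 0, 0 and 0.057 FPKM in high N leaf, against 0.063, 0.063 and 0.231 FPKM in low N leaf. The share of all leaf genes without overlap was not counted, so 2 of 44 cannot be read as more or fewer than other genes show.

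**Figure D5:**
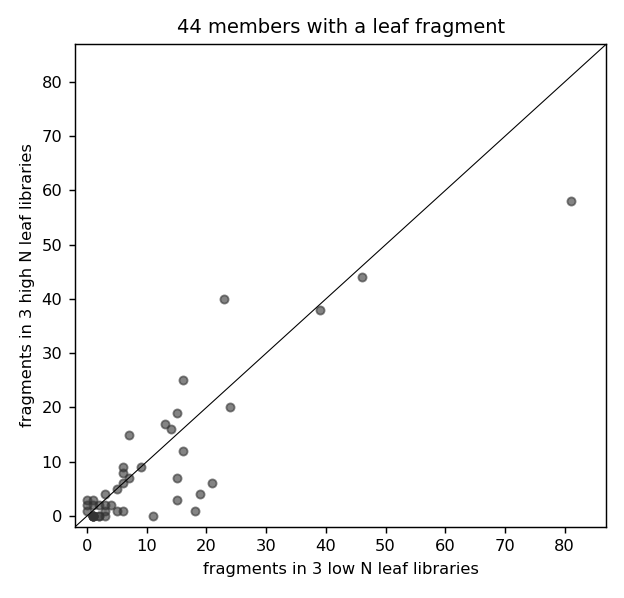
Fragments of each of the 44 members detected in leaf, summed over the 3 high N leaf libraries (vertical) and over the 3 low N leaf libraries (horizontal), with the line of equality. Most members have under 20 fragments on either axis, and the totals over members are 393 in high N leaf and 473 in low N leaf.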

How the data were processed

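Leaf and root RNA was taken in 4 groups of 3 libraries and sequenced as 150 bp read pairs. The authors deposited FPKM per gene, computed from fragment counts and gene length. The study's methods name TopHat, Bowtie and HTSeq with a SpinachBase genome, and the submitters' processing notes name fastp, HISAT2 2.1.0, featureCounts and DESeq2. Groups were taken from library names. The label field for treatment gives low N for all 6 root libraries and high N for all 6 leaf libraries, and the field for tissue gives leaf for all 12, so every direction in root rests on the library names. Tissue was checked with marker genes and treatment was not. The table held 0 other sample columns.

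The members and lists were chosen with earlier results of these data known. Fragments and gene lengths were worked back from FPKM for 23015 genes, while 2480 were 0 throughout. Contrasts used limma 3.58.1 in R 4.3.3 (eBayes with a variance trend) on log2(FPKM + 1), over genes above 0 in a leaf library or with a mean root FPKM of at least 1, with Benjamini-Hochberg adjustment. The added 1 shrinks the change of low genes. The procedure was tested on simulated fragments with a fixed dispersion: for root (17875 genes) limma recovered 100% of 2-fold and 100% of 4-fold changes, and for leaf (21519 genes) 75% and 100%, with 13 and 5 false calls. The simulated libraries varied less than the members do, so this checks the procedure and not its power. Changed genes were drawn only from genes with more fragments per library, on average, than any member had over all leaf libraries together. The leaf recovery therefore does not cover the members. Python 3.11.15, pandas 2.3.3, SciPy 1.17.1 and matplotlib 3.10.9 were used for the rest.

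Named were the 10 members with the largest difference, the 3 with the highest root level, up to 5 per function list by rank, those at the limits of the choice, and those with p below 0.05 in leaf. Other members named were chosen after their values were seen. Of the identifiers, 0 matched the RefSeq table, so positions and sequences are not given here. Alternatives were another pseudocount, filters, scalings, one fit of all 4 groups, a replicate block and each library left out; voom on fragments and leaving out replicate 2 of both root groups were added after the data were seen.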

Additional observations from a re-analysis of the deposited data

How the results depend on the processing

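The median root difference of the 76 members was -1.61 with a pseudocount of 0.1, -1.63 in the voom fit, -1.19 with either scaling, -0.87 without replicate 2 of both groups, and -1.45 to -1.11 with each root library left out in turn. Its negative sign, and that of the single members when libraries are left out or the pseudocount changes, was fixed by a choice that required groups without overlap, and says nothing of stability. Leaving out low N root replicate 2 moved the difference of 14 members by over 1.5 times, leaving out high N root replicate 2 or low N root replicate 1 that of 3 each, and leaving out low N root replicate 3 that of 1. The choice of members itself depended on the libraries. With each root library left out in turn, 35 to 62 of the 76 would still be chosen, with 35 without high N root replicate 3 and 39 without low N root replicate 1, and 45 without replicate 2 of both groups. Under the other alternatives 66 to 69 were still chosen.

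In leaf, 0 members had an adjusted p below 0.05 under any alternative, the replicate block included. Over all genes in leaf, limma called 0, against 37 with all 4 groups in one fit, 2 with voom, and 0 to 4 with each library left out (4 without low N leaf replicate 1). In root it called 5, against 95 with all 4 groups in one fit, 2 with voom, 0 with no filter, and 0 to 18 with each library left out. With the replicate block, 0 genes were called in root and 0 in leaf. Deviations of libraries with the same number correlated at -0.02 to 0.10 in root and -0.01 to 0.27 in leaf. Those with different numbers correlated at -0.13 to 0.05 in root and -0.23 to 0.13 in leaf. The highest value in each tissue was from libraries with the same number, but the ranges overlap. The numbers were not taken to pair the plants, and these values do not settle whether they do. The cause of the shifts in the number of genes called was not tested. Where a member had few fragments, as in leaf, depth limited what could be seen.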
